A study of Mus musculus with 12 samples.

Results

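The H3K4me3 peaks of doxorubicin-treated mouse embryonic fibroblasts (MEFs) were compared between lincRNA-p21 knockout (KO) and wild-type (WT) cells. All peaks of the WT and KO lists were taken. There were 16477 WT peaks and 15095 KO peaks, together 31572 of the 128880 peaks in the 8 lists of the series. The WT cells were primary MEFs of genotype lincRNA-p21+/+ and the KO cells were lincRNA-p21-/-, both on a hybrid 129/B6 background, and both received doxorubicin for 24 h (0.5 mM according to the labels). Mock-treated MEFs of both genotypes and H3K27me3 lists of the same 4 conditions served as reference points. The labels do not say how many embryos or cultures stand behind a library, or what part of the locus the KO allele lacks. Each condition and mark had 1 library, so there is no replicate check, no p-value was computed, and a difference between the lists can also come from the depth or enrichment of a library, which cannot be told apart from genotype.

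H3K4me3 is trimethylation of lysine 4 on histone H3. It marks promoters that are active or ready to be used, and the width and height of a peak tend to follow how strongly a promoter is used. H3K27me3 is laid down by Polycomb repressive complex 2 over silent genes, many of them developmental regulators. Promoters carrying both marks are called bivalent. Below, the word stands only for H3K4me3 peaks that overlap H3K27me3 peaks, whether or not they lie at a promoter. Such an overlap does not show that both marks sit on the same DNA molecule. Doxorubicin breaks DNA and activates p53, and lincRNA-p21 is a long noncoding RNA that p53 induces, transcribed next to the cell-cycle inhibitor gene Cdkn1a. The series title puts the question as whether this RNA promotes expression of Polycomb target genes. Positions are those of the mouse build mm9, and no annotation of that build was used. No peak is therefore given a gene name, the labelled cell type was not checked against marker promoters, and the targeted locus was not examined.

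The score of a peak is the authors' own value, −10 times log10 of the peak's p-value, and it ranks peaks within a list. Scores of different lists are set side by side below, and they also depend on the depth and enrichment of each library. Both lists began just above a score of 80 and had many peaks tied at a ceiling of 3100. In the KO list 35.4% of peaks stood at or above the ceiling, against 20.0% in the WT list. The median score was 2141 in KO and 1526 in WT. KO peaks thus scored higher as a whole although they were fewer. The median peak was 1777 bp wide in KO and 1734 bp in WT, and the lists covered 29.2 Mb and 32.1 Mb. Read counts were not used here, so the depth of the libraries is unknown.

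A peak was called WT-only or KO-only when no peak of the other list overlapped it by 1 bp or more. WT-only peaks numbered 1967, which is 11.9% of the WT list, and KO-only peaks numbered 665, which is 4.41% of the KO list. The H3K27me3 content of these sets was then counted. Of the WT-only peaks 53.9% overlapped an H3K27me3 peak of the same cells (1060 peaks, exact 95% binomial interval 51.7 to 56.1%), against 11.2% of the WT peaks shared with KO. Of the KO-only peaks 4.06% did (27 peaks, 2.69 to 5.85%), against 12.4% of the shared KO peaks. The WT-only set was therefore richer in bivalent places than the rest of its list, and the KO-only set was poorer. These intervals cover counting error over peaks only. With the lists cut to the same 15095 highest-scoring peaks there were 1131 WT-only and 1080 KO-only peaks, counts that lists of equal length hold close together. The H3K27me3 shares in that setting were 69.1% and 4.91%.

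Peaks found in a single list were mostly weak and narrow. The median score of WT-only peaks was 153.85, with quartiles of 106.18 and 282.4, against a median of 1790 for shared WT peaks. KO-only peaks had a median score of 117.8, with quartiles of 93.92 and 158.46, against a median of 2291 for shared KO peaks. WT-only peaks thus scored somewhat higher than KO-only peaks, most clearly at the upper end. A score of 1000 was reached by 55 of the 1967 WT-only and 2 of the 665 KO-only peaks. Median widths were 912 bp for WT-only and 747 bp for KO-only peaks. Of WT peaks under 1 kb wide 42.2% were absent in KO, of those between 1 and 2 kb 9.42%, and of those between 3 and 5 kb 0.702%. None of the 294 WT peaks of 5 kb or more was absent.

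Peak numbers gave a further look at absence. The names of the peaks carry numbers in genome order, taken here to be the running numbers of the peak caller, an assumption that was not tested. Of the numbers up to the highest, 8.44% were missing from the KO list and 10.3% from the WT list, and such numbers could belong to peaks that scored too low to be kept. Over the whole KO list, 8.32% of the gaps between neighbouring peaks missed a number (1254 of 15068). Around WT-only peaks the share was larger, 36.9% (726 of 1967), and it was 35.7% for those with H3K27me3 in all 4 H3K27me3 lists. Missing KO numbers were thus found more densely at WT-only peaks than in the list as a whole, and some WT-only peaks may have had a KO peak scoring under 80. For 1235 WT-only peaks (62.8%) the KO peaks on either side had consecutive numbers. In the WT list 10.1% of all gaps missed a number, against 48.3% around KO-only peaks (321 of 665). A longer gap between peaks has more room both for a peak of the other list and for a missing number, and the part of gap length was not tested.

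The 15 WT-only peaks with the highest scores ranged from 1439 to 3100, and each lay at H3K27me3 in all 4 conditions. Of all WT-only peaks 50.6% did. Each was also present in the WT mock list, at a lower score than in the WT doxorubicin list, and 9 of the 15 were present in the KO mock list. The peaks were chosen for a high WT doxorubicin score and no KO doxorubicin peak. That choice favours lower scores in the other lists, at each of the 15 places. The leading peak, chr5:37259022-37261890, was 2869 bp wide. It scored 3100 in WT doxorubicin and 1548 in WT mock cells and was in neither KO list, while the H3K27me3 peaks there scored 1924 in WT doxorubicin and 2018 in KO doxorubicin cells. Both genotypes thus carried H3K27me3 at this place, and H3K4me3 was listed in WT alone.

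The next 3 of these peaks showed the same order of lists. At chr4:21605028-21607403 the H3K4me3 score was 834 in WT mock, 2382 in WT doxorubicin and 247 in KO mock cells, with no KO doxorubicin peak within 8089 bp. At chr4:137949583-137952822 it was 463.5 in WT mock and 2379 in WT doxorubicin cells, with no peak in either KO list. At chr7:85721590-85724367 it was 876, 2008 and 387 in WT mock, WT doxorubicin and KO mock cells, and the nearest KO doxorubicin peak was 202495 bp away. At these 4 places no KO doxorubicin peak number was missing between the flanking peaks, which held for 10 of the 15 in total.

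Further down the same list the pattern was alike. The peak chr2:162484906-162487478 scored 589 in WT mock and 1811 in WT doxorubicin cells and was absent from both KO lists. The peak chr5:102091867-102095118 scored 619 and 1800 in the WT lists and 162 in KO mock cells, and its H3K27me3 score was 930 in WT doxorubicin and 2762 in KO doxorubicin cells. The widest of the 15, chr15:97831911-97835618 at 3708 bp, scored 722 and 1620 in the WT lists and 178 in KO mock cells. At this place and at chr5:102091867-102095118 a KO doxorubicin number was missing between the flanking peaks. Wherever KO mock cells had a peak at these 15 places, it scored lower than that of WT mock cells. This was near the share over all matched mock pairs with H3K27me3 in all 4 lists, of which 92.6% scored lower in KO. The scores come from separate lists and are set side by side only.

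At most of these places the listed H3K27me3 score was higher in KO than in WT doxorubicin cells, and at a few it was lower. At chr2:147869325-147872533, where H3K4me3 scored 1465 in WT doxorubicin cells, H3K27me3 scored 1595 in WT doxorubicin and 651 in KO doxorubicin cells. At chr5:140022083-140024119, with an H3K4me3 score of 1497, the order was reversed, with H3K27me3 scores of 1707 and 2530. Over the 996 WT-only peaks with H3K27me3 in all 4 lists, the H3K27me3 peak had a median score percentile of 94.83 in WT doxorubicin and 95.04 in KO doxorubicin cells (100 is the highest score of a list). The median widths of these H3K27me3 peaks were 5502.5 bp and 5160.5 bp, and they covered the whole H3K4me3 peak in the median case in each list. These peaks were chosen for having H3K27me3 in every list, so its presence in both genotypes was fixed by that choice, and percentiles this high leave little room to differ.

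The 15 leading KO-only peaks scored 405 to 1477, and none lay at H3K27me3 in any condition. This was near the share over all KO-only peaks, of which 92.8% (617 of 665) had no H3K27me3. Of these, 7 were present in WT mock and 10 in KO mock cells, and 3 were in the KO doxorubicin list alone. At chr1:92738070-92740864 the score was 281 in WT mock, 683 in KO mock and 1477 in drug-treated KO cells, and the nearest WT doxorubicin peak was 2704 bp away. At chr7:108542618-108544659 the scores were 110, 384 and 985 in the same lists, with consecutive WT doxorubicin numbers on either side. At chr16:10446354-10448210 they were 214, 383 and 714. At these 3 places the WT doxorubicin list was the only one of the 4 without a peak. WT doxorubicin numbers were missing between the flanking peaks at the first (2 numbers) and the third (1 number). A WT peak scoring under 80 may have been there. At 5 of the 15 leading KO-only peaks no number was missing.

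Among the 15 leading KO-only peaks, 3 were present in KO doxorubicin cells alone. The peak chr17:4626136-4626732, only 597 bp wide, scored 1166, a high score for its width. The remaining ones were chr6:83483068-83486421, at 3354 bp the widest KO-only peak, with a score of 441, and chr5:23889136-23890044, 909 bp wide with a score of 440.7. Some leading KO-only peaks were close to a WT doxorubicin peak without touching it. The gap was 514 bp at chr6:4459316-4461878 and 158 bp at chr19:36190759-36193390.

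**Figure D1:**
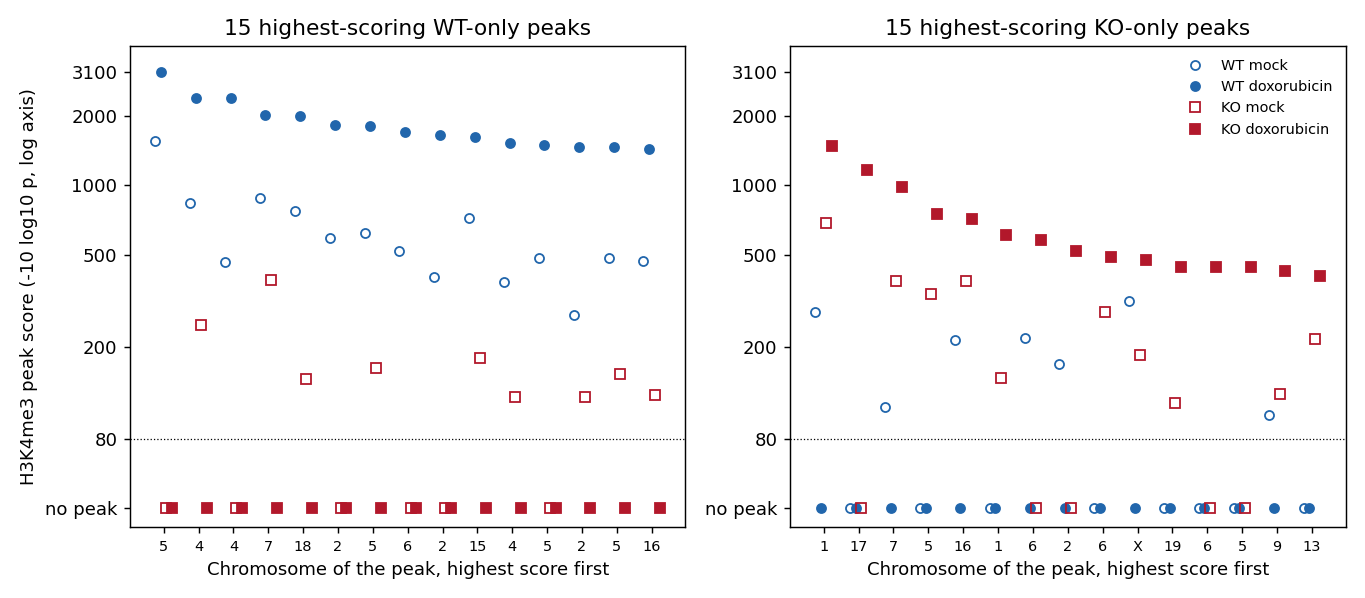
H3K4me3 score (log axis, −10 log10 p) in each of the 4 lists at the 15 highest-scoring WT-only peaks (left) and the 15 highest-scoring KO-only peaks (right), labelled by chromosome. Points at the bottom stand for no peak, the dotted line is the score of 80 below which no peak is listed, and all 15 WT-only peaks also had a WT mock peak.

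The mock lists placed the remaining peaks. Of the 1967 WT-only peaks 994 (50.5%) were in neither mock list, 686 (34.9%) were in WT mock only, 244 (12.4%) in both, and 43 (2.19%) in KO mock only. Those in both mock lists were the strongest, with a median score of 374, and 73.0% of them had H3K27me3 in all 4 lists. At these 244 places KO cells had a peak without the drug and none with it. Those in neither mock list had a median score of 120.5, and 41.2% had H3K27me3 in all 4 lists. Of the 665 KO-only peaks 402 (60.5%) were in neither mock list, 91 (13.7%) in both, 100 (15.0%) in WT mock only and 72 (10.8%) in KO mock only. None of the 191 KO-only peaks that were also in WT mock cells had H3K27me3 in all 4 lists, near the 2.56% over all KO-only peaks.

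Along the genome WT-only peaks were spread over all chromosomes. Their share was between 7.57% of WT peaks on the X chromosome and 14.5% on chromosome 12. The X chromosome also had the lowest share of WT peaks with H3K27me3 in all 4 lists, 3.19%, against 9.13 to 17.6% on the autosomes. KO-only shares ran from 3.39% on chromosome 16 to 5.73% on X, so that X had the lowest WT-only and the highest KO-only share. In 1 Mb windows the most WT-only peaks, 12 of 34, lay on chromosome 1 between 74 and 75 Mb. Of these 12, 7 had H3K27me3 in all 4 lists, near the share over all WT-only peaks (50.6%). Of 2147 windows with a WT peak, 71 had 5 or more WT-only peaks. Of 2108 windows with a KO peak, none had 5 or more KO-only peaks. KO-only peaks were also fewer in total (665 against 1967), and clustering was not tested.

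Peaks found in both genotypes were then compared for width. One-to-one pairs, in which a WT peak overlapped 1 KO peak and that peak overlapped no other WT peak, numbered 13401. A further 328 WT peaks spanned 2 or more KO peaks and 413 KO peaks spanned 2 or more WT peaks. Of these, 46 of the WT peaks and 3 of the KO peaks had H3K27me3 in all 4 lists. Over all pairs the median KO to WT width ratio was 0.985, with quartiles of 0.859 and 1.1. Pairs over 1.5-fold narrower in KO numbered 998 (7.45% of pairs) and pairs over 1.5-fold wider numbered 330 (2.46%).

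The narrower and the wider pairs differed in H3K27me3. Of the 998 narrower pairs 457 (45.8%) had H3K27me3 in all 4 lists, against 10.0% of all pairs and 5 of the 330 wider pairs (1.52%). In 862 of the 998 narrower pairs the KO peak lay wholly inside the WT peak, with median differences of 344.5 bp at one edge and 365.5 bp at the other. Of the 330 wider pairs, 269 (81.5%) were nested the other way, with the WT peak inside the KO peak. Nesting was thus common in both directions.

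Width followed the number of H3K27me3 lists with a peak at the place. Pairs without H3K27me3 had a median width ratio of 1.01 (11326 pairs, quartiles 0.901 and 1.12), from median widths of 1930 bp in WT and 1937 bp in KO. Pairs with H3K27me3 in 1, 2 and 3 lists had median ratios of 0.904, 0.903 and 0.844. Pairs with H3K27me3 in all 4 lists had a median ratio of 0.748 (1342 pairs, quartiles 0.601 and 0.882), from 1554 bp in WT and 1103 bp in KO. In this last class 90.5% of pairs were narrower in KO, against 47.7% of pairs without H3K27me3. Matched H3K4me3 peaks at H3K27me3 in all 4 lists were thus mostly narrower in KO, those at H3K27me3 in 1 to 3 lists were narrower to a smaller extent, and those without H3K27me3 had nearly the same median width in both genotypes.

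The mock libraries, which are separate from the doxorubicin ones, gave the same order with a smaller gap. There the median width ratio was 0.865 without H3K27me3 (10810 pairs) and 0.761 with H3K27me3 in all 4 lists (1387 pairs). WT mock peaks were wider than KO mock peaks at most places of either kind, as 84.6% of the first and 93.4% of the second were narrower in KO. With doxorubicin the share narrower in KO was 47.7% without H3K27me3 and 90.5% with it, as above. The difference between the treatments was not tested.

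**Figure D2:**
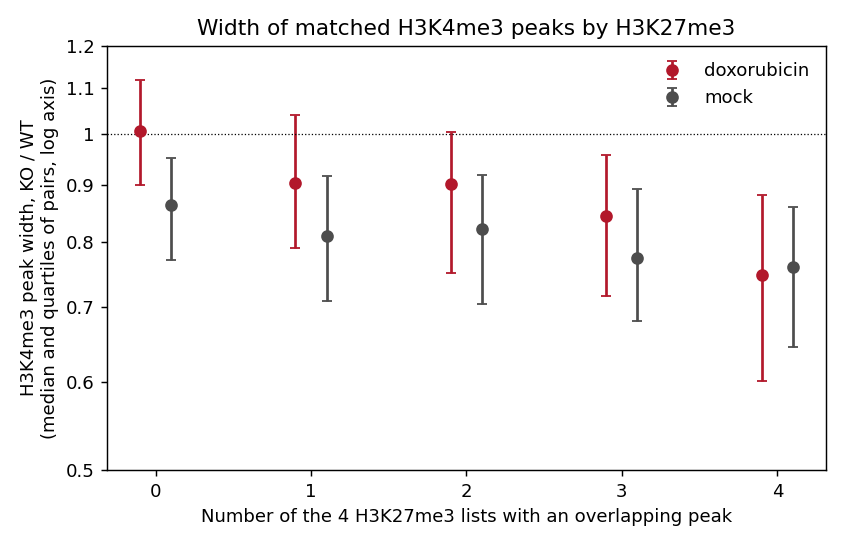
KO to WT width ratio of one-to-one matched H3K4me3 peaks (log axis, median as point, quartiles as bars) by the number of H3K27me3 lists with an overlapping peak, for the doxorubicin and the mock libraries. With doxorubicin the median goes from 1.01 without H3K27me3 to 0.748 with it in 4 lists, and in mock cells from 0.865 to 0.761.

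The gap in width was present at each level of WT score. Among WT peaks scoring 1000 to 2000, pairs without H3K27me3 had a median ratio of 1.03 (2803 pairs) and pairs with it in all 4 lists 0.738 (446 pairs). Among WT peaks scoring 200 to 500 the ratios were 1.01 and 0.746, and at or above the ceiling 0.9754 and 0.829. In each of the 6 score classes the bivalent pairs had the lower median.

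Scores of the pairs separated the same 2 classes. Without H3K27me3 the KO peak scored lower than the WT peak in 15.2% of pairs, and with H3K27me3 in all 4 lists in 91.5%. Median scores were 1985 in WT and 2715 in KO without H3K27me3, and 1037 in WT and 354 in KO with it. Without H3K27me3 the KO peak scored higher in 62.2% of pairs and equal in 22.6%, all of these tied at 3100, and with H3K27me3 in all 4 lists it scored higher in 7.53%. In mock cells the KO peak scored lower in 79.8% and 92.6% of pairs of these classes.

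To set aside the overall level, scores were turned into percentiles within each list, with tied scores given their mean rank. Pairs with both scores tied at exactly 3100 then differ by −7.79 points merely because more KO peaks were tied. Of the 13401 pairs 1037 (7.74%) stood 20 or more points lower in KO, and 637 of these (61.4%) had H3K27me3 in all 4 lists. Pairs standing 20 or more points higher numbered 481 (3.59%), of which 3 had H3K27me3 in all 4 lists. The balance of these counts depended on the ranking. With ranks taken among the matched peaks alone 777 stood lower and 774 higher, and with lists of equal length 709 and 755. With ranks among the matched peaks, 468 of the 777 lower pairs (60.2%) and 3 of the 774 higher pairs had H3K27me3 in all 4 lists. Without the pairs that had a score at the ceiling, 886 stood lower and 38 higher, so most of the higher ones had a KO peak at the ceiling. The median difference was −19.2 points with H3K27me3 in all 4 lists and −2.0 points without H3K27me3, and with pairs at the ceiling left out −18.9 and −0.786 points. With ranks among the matched peaks the medians were −14.2 and 2.39 points. In the mock lists the medians were −6.99 and −0.499 points.

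The strongest WT peaks, at the score ceiling, were counted separately. Of 68 pairs with the WT score at or above the ceiling and H3K27me3 in all 4 lists, 51 (75%) had a KO score under it. Of 2878 such pairs without H3K27me3, 68 (2.36%) did.

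**Figure D3:**
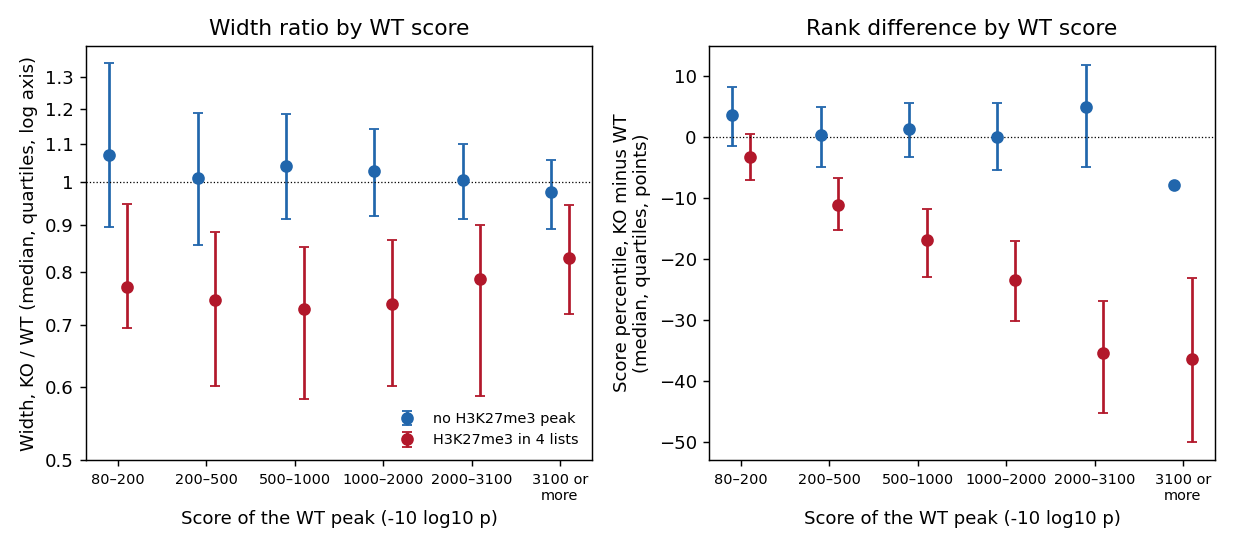
KO to WT width ratio (left, log axis) and KO minus WT score percentile (right, points) of matched H3K4me3 peaks in doxorubicin-treated cells by the score of the WT peak, as median and quartiles, for pairs with no H3K27me3 peak and pairs with one in all 4 lists. The bivalent pairs are lower in both panels in all 6 score classes; in the highest class without H3K27me3 the median and both quartiles are −7.79 points, the value given by ties.

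Of the 10 pairs that stood farthest below their WT rank in KO, 9 had H3K27me3 in all 4 lists and 1 had it in 3. The first, chr2:180627093-180629640, scored 3100 in WT and 176 in KO doxorubicin cells and was 2548 bp wide in WT and 1477 bp in KO, a difference of −78.3 percentile points. At chr3:82930959-82933297 the scores were 2710 and 80.7, just above the lowest score of the list, and the widths 2339 bp and 609 bp. At chr15:74346198-74350401 the scores were 2785 and 163 and the widths 4204 bp and 839 bp. The second of these was thus in the KO list by a margin of less than 1 score unit.

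The mock lists had a peak at each of these 10 places, in both genotypes. At chr2:180627093-180629640 the mock scores were 1302 in WT and 336 in KO, and at chr9:98854736-98858243 they were 1978 and 92.3, beside 3100 and 296 with doxorubicin. At chr14:30534409-30536609 the width was nearly the same in WT and KO doxorubicin cells, 2201 bp and 2176 bp, with scores of 3119 and 1056. A lower score thus did not always come with a narrower peak. The WT score of this pair lay above 3100, which gave a percentile of 98.4, against 89.1 for a WT peak tied at 3100.

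None of the 10 pairs that stood farthest above their WT rank had H3K27me3 in all 4 lists, and 9 had it in none, shares near those of all pairs (10.0% and 84.5%). The first, chr9:62525352-62527109, scored 1098 in WT and 3136 in KO and was 1758 bp wide in WT and 2809 bp in KO. At chr10:67596617-67599946 the scores were 1274 and 3203 with almost equal widths of 3330 bp and 3329 bp. All 10 had KO scores above the ceiling of 3100, between 3108 and 3203. A peak tied at 3100 had a KO percentile of 81.3, and these 10 had percentiles of 98.2 to 99.5, so small score differences above the ceiling weigh heavily in this order. Whether these 10 peaks were stronger than the tied ones was not tested, so their order is one of listed scores only.

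**Figure D4:**
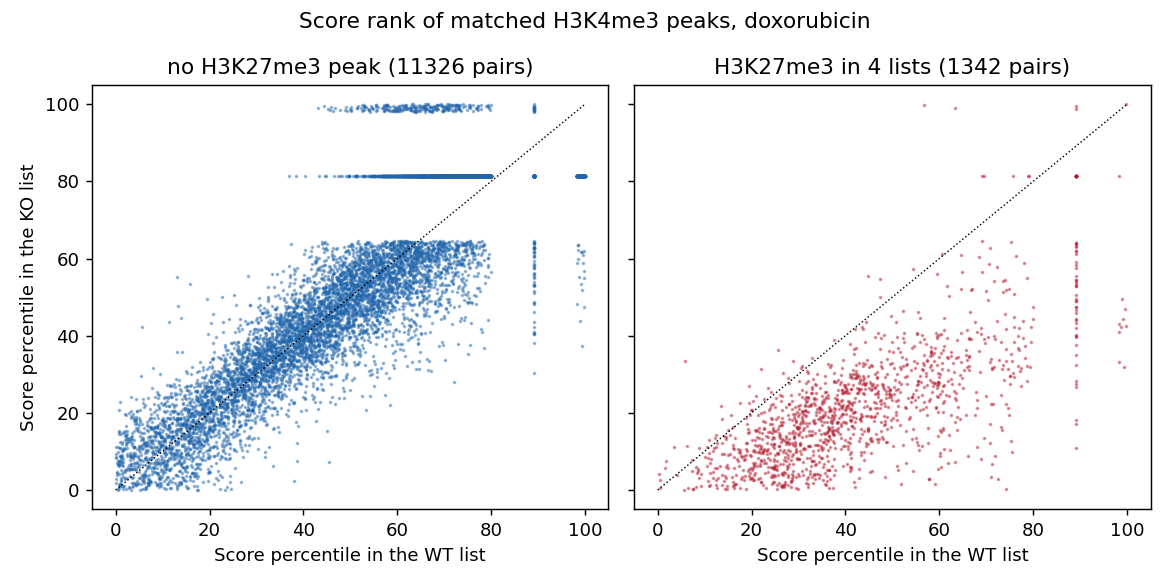
Score percentile of each matched H3K4me3 peak in the WT list (x axis) and the KO list (y axis), doxorubicin-treated cells, for the 11326 pairs without H3K27me3 (left) and the 1342 pairs with it in all 4 lists (right); the dotted line marks equal percentiles. Points on the left lie about the line, points on the right lie mostly below it, and the straight rows and columns are peaks tied at the ceiling score.

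The largest width differences were then taken among strong pairs, with both scores at 1000 or more. Of the 8813 strong pairs 236 (2.68%) had H3K27me3 in all 4 lists and 8285 (94.0%) had it in none. Strong pairs over 1.5-fold narrower in KO numbered 276 (3.13%), of which 24 (8.70%) had H3K27me3 in all 4 lists. Of the 10 with the smallest ratio 2 had H3K27me3 in all 4 lists and 6 had it in none. The first, chr12:113916315-113921968, was 5654 bp wide in WT and 1540 bp in KO doxorubicin cells, and 1642 bp in WT mock and 1398 bp in KO mock, and the WT doxorubicin peak alone was wide. At chr6:30121078-30126954, with H3K27me3 in all 4 lists, the widths were 5877 bp in WT and 1780 bp in KO, and 3958 bp and 2232 bp in mock cells. At chr11:69388872-69392894 WT peaks were wide in both treatments, 4023 bp with doxorubicin and 7086 bp in mock, and KO peaks were 1412 bp and 1393 bp.

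Strong pairs that were wider in KO had ratios of up to 2.07, and all 10 with the largest ratio had no H3K27me3 in any list, near the share over strong pairs. There were 84 strong pairs over 1.5-fold wider (0.953%). At chr5:124927418-124928403 the width was 986 bp in WT and 2043 bp in KO doxorubicin cells, and 1325 bp and 1321 bp in mock cells. At chr17:11033162-11033935 it was 774 bp and 1557 bp, and 1877 bp and 1303 bp in mock cells. In both cases the WT doxorubicin peak was the narrowest of the 4. The 5 widest pairs were 8117 to 14165 bp wide in WT, had ratios between 0.920 and 1.00 and were all at the ceiling score in both lists. At chr3:145308714-145317480 the width was 8767 bp in WT and 8340 bp in KO, and at chr11:96684407-96692523 it was 8117 bp and 8126 bp. These are one-to-one pairs only, and most WT peaks of 10 kb or more were not among them. The WT doxorubicin list held 6 peaks of 10 kb or more and the KO list 2. Between 5 and 10 kb the lists held 288 and 193 peaks.

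The place of a peak relative to H3K27me3 was also measured as a distance. Of the 2692 WT peaks overlapping a WT doxorubicin H3K27me3 peak 39.4% were absent in KO. Of those up to 1 kb away 10.1% were, of those 1 to 5 kb away 6.95%, and of those over 100 kb away 6.06%. The median width ratios of the pairs in these classes were 0.764, 0.931, 0.987 and 1.01. In absence and width the differences were thus found at overlapping peaks, were small within 1 kb, and were close to those of distant peaks beyond. By score the step was more gradual. The KO peak scored lower in 89.2, 46.5, 19.0 and 17.1% of the pairs in the same order of classes.

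Within the bivalent class the H3K4me3 difference followed the strength of H3K27me3. The 996 WT-only and 1393 shared WT peaks with H3K27me3 in all 4 lists were put in 4 groups of equal size by the score of the WT doxorubicin H3K27me3 peak. Absence in KO was 26.1% in the lowest group (22.6 to 29.9%), 32.0% in the next, 46.7% in the third and 61.9% in the highest (57.8 to 65.8%). The median width ratio of the matched pairs was 0.834, 0.758, 0.676 and 0.638 in the same order. The H3K4me3 score of the WT peaks also differed along these groups, with medians of 788, 642, 582 and 456, and its part in the absence was not tested. Among the matched pairs the WT score varied less, with medians of 1143, 950, 1045 and 959.

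In mock cells, grouped by the WT mock H3K27me3 score, absence was 22.6, 20.8, 27.1 and 37.6%, and the median width ratio 0.803, 0.779, 0.734 and 0.702. In the highest group the interval was 57.8 to 65.8% with doxorubicin and 33.3 to 42.05% in mock, and in the lowest 22.6 to 29.9% and 19.0 to 26.6%. These intervals hold no spread between libraries, and the difference between the treatments was not tested.

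**Figure D5:**
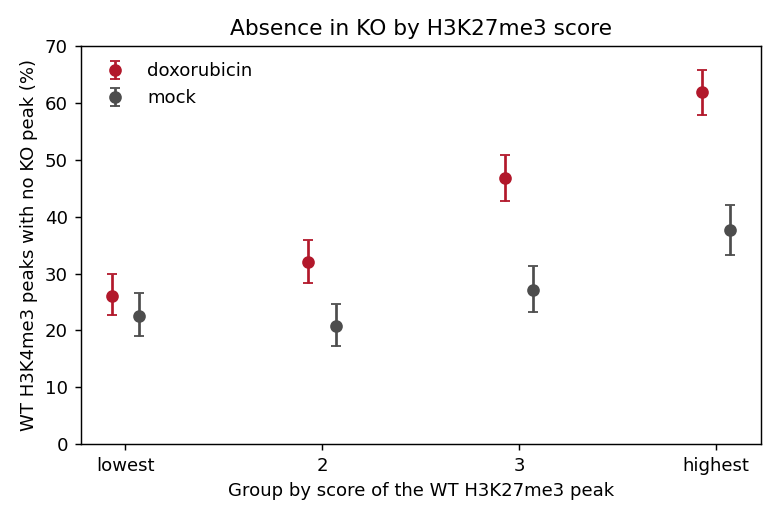
Share of WT H3K4me3 peaks with H3K27me3 in all 4 lists that had no overlapping KO peak, in 4 equal-sized groups by the score of the WT H3K27me3 peak (x axis, lowest to highest), for the doxorubicin and the mock libraries. Bars are exact 95% binomial intervals over peaks; the share goes from 26.1 to 61.9% with doxorubicin and from 22.6 to 37.6% in mock cells.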

How the data were processed

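H3K4me3 and H3K27me3 ChIP-seq peak lists of 4 conditions (8 libraries) were used; 4 input libraries were left aside. The submitters' processing notes list Bowtie 0.12.7, MACS 1.4.2 and mm9. The deposited score is −10 times log10 of a peak's p-value, per the file headers, and no score was under 80. Each list comes from 1 library. Starts were taken to count from 0 and are printed counting from 1. No artefact regions were removed here.

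Overlap of 1 bp counted as shared. Width ratios used one-to-one pairs, and ranks were mean percentiles within a list. H3K27me3 status was the number of H3K27me3 lists overlapping the WT peak for pairs and WT peaks. For KO-only and shared KO peaks it was the number overlapping the KO peak. Named peaks are the 15 highest-scoring WT-only and KO-only peaks, the 10 pairs at each extreme of width ratio (both scores at least 1000) and of rank difference, and the 5 widest pairs; examples are printed. Gene and marker lists needed an mm9 annotation and were not used here. Members and lists were chosen with earlier results of these data known. The classes of pairs by H3K27me3, score and distance, the peak numbering and the mock comparison were added after seeing the values. Alternatives concerned score, overlap, joining, list length and matching. On simulated lists built from the 16477 WT peaks, 6 of 6 rules gave back the number put in. Intervals are Clopper-Pearson. Software was matplotlib 3.10.9, scipy 1.17.1, pandas 2.3.3, numpy 2.4.6 and Python 3.11.15.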

Additional observations from a re-analysis of the deposited data

Results flagged for a closer look

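Some peaks were listed in one genotype with doxorubicin and in the other without it. In list presence the genotypes thus differed in opposite directions in the 2 treatments. There were 43 such peaks (2.19% of WT-only peaks) found in WT only with doxorubicin and in KO only in mock cells. Another 100 (15.0% of KO-only peaks) were found in KO only with doxorubicin and in WT only in mock cells. Most scored low, with median doxorubicin scores of 137.6 and 128.4. The medians over all WT-only and KO-only peaks were 153.85 and 117.8, and no listed score was under 80. The difference between the treatments was not tested. Among the 15 highest-scoring KO-only peaks, chr6:3347667-3349689 had this pattern, with a score of 580.14 in KO doxorubicin cells and 218 in WT mock cells. So did chr2:65506131-65507356, with a score of 516.05 in KO doxorubicin cells and 168 in WT mock cells.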

How the results depend on the processing

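No paired analysis was possible because each condition and mark has 1 library. Equal numbers of highest-scoring peaks gave 1131 WT-only and 1080 KO-only peaks and 709 pairs lower and 755 higher in rank in KO, and ranks among the matched peaks gave 777 and 774, so that 1037 against 481 became about equal. Leaving out pairs at the ceiling left 38 pairs higher in rank. With both scores at least 1000 there were 276 pairs over 1.5-fold narrower and 84 wider among 8813 pairs (3.13% and 0.953%, against 7.45% and 2.46%), the cause was not tested, and the median width ratio was 0.998, against 0.989 with 50% overlap of both peaks. The share of WT-only peaks at H3K27me3 was 58.4% at a score of at least 100, 69.1% in lists of equal length, 58.4% with sharing within 1 kb, 60.0% with peaks joined, 60.8% without peaks under 1000 bp and 50.6% for H3K27me3 in all 4 lists. For KO-only peaks the last setting gave 2.56%. For the 2 H3K27me3 classes of pairs, alternatives chosen after seeing the data gave median width ratios of 0.879 and 1.003 with both scores at least 1000. For WT peaks 1500 to 2500 bp wide they were 0.713 and 1.02, and with 50% overlap of both peaks the first was 0.778. No median ratio crossed 1 in the settings run. A peak scored near 80 in 1 list may be under it in the other, and at the ceiling of 3100 differences in score are not visible.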
